A study of Mus musculus with 6 samples.

Results

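The cytosolic ribosomal protein genes were described in KP2 cells, a mouse pancreatic cancer line of the C57BL/6J strain from a KPC mouse, a genetic model of pancreatic cancer. They were the protein-coding genes with a symbol of the form Rps, Rpl, Rplp or Rpsa, without the Rps6k kinases and without 6 pseudogenes that carry such symbols. This gave 83 of the 41388 genes counted, 32 for proteins of the small ribosomal subunit and 51 for proteins of the large subunit. The groups were IRAK4 KO cells, made by lentiviral infection with plentiCRISPR vectors whose guides target Irak4, the kinase downstream of Toll-like and interleukin-1 receptors, then IRAK4 KO + rescue cells and wild-type (WT) cells. Each group had 2 libraries of oligo-dT selected RNA. All cells were KP2 cells of low passage grown in the same serum-containing medium. The labels give neither the rescue construct, nor a vector in the WT cells, nor whether a line is 1 clone, nor whether the libraries of a group came from separate cultures, so a p-value covers no more than the variation among the libraries, which may be technical.

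Ribosomal proteins assemble with ribosomal RNA in the nucleolus, and nearly every one of them is present as a single copy in its subunit, so cells are known to make them in matched amounts. Their mRNAs are among the most abundant in growing cells and typically start with a 5′ terminal oligopyrimidine (TOP) tract, a cytosine at the cap followed by a run of pyrimidines. Through this tract mTOR and the RNA-binding protein LARP1 are known to control their translation. Mammalian genomes also hold many processed pseudogenes copied from these mRNAs, which makes short reads from them hard to place.

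A pyrimidine run, defined as C followed by at least 6 C or T on the sense strand from 20 bases before to 30 bases after the RefSeq start, was found in 38 of the 63 ribosomal protein genes with a RefSeq promoter sequence (60.3%). Among 16300 protein-coding genes it was found in 25.5%. It stood in 27.9% of 68 mitochondrial ribosomal protein genes and in 61.5% of 13 other genes known for TOP mRNAs. The 8 sequences shown are those with a run among the genes that changed in the KO cells and are shown so that the letters around each annotated start can be read. In Rpl14, Rpl27a, Rpl28 and Rps6 the run reaches across the RefSeq start. In Rpl10a, Rpl34 and Rpl39 it begins 9, 13 and 20 bases before that start and ends before it, so there it lies upstream of the annotated mRNA. In Rps27l the capitals also lie upstream and begin at the edge of the searched stretch, 20 bases before the start. Pyrimidines continue beyond that edge, and a later run in Rps27l, nearer the start, is left in lower case. The 8 sequences are 30-base stretches from RefSeq (GRCm38.p6), 5′ to 3′ on the strand of the gene, with the first run found in capitals. Rpl10a is at chr17:28328456-28328485 on the plus strand and Rpl14 at chr9:120571503-120571532 on the plus strand. Rpl27a is at chr7:109519185-109519214 and Rpl28 at chr7:4792957-4792986, both on the plus strand. Rps27l is at chr9:66946060-66946089 on the plus strand and Rps6 at chr4:86857345-86857374 on the minus strand. Rpl34 is at chr3:130730388-130730417 and Rpl39 at chrX:37085219-37085248, both on the minus strand.
Rpl10a: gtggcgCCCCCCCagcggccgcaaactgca
Rpl14: ggcgggCCCTCTCTCTTCTCgctgagcgcc
Rpl27a: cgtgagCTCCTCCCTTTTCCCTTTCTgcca
Rpl28: tcgtgtCTCTCTTTCCgtctccggccgcca
Rps27l: tccactCCTCTCCactcctccccgccgcct
Rps6: gtcgggCCTCTTTTTCgtgacgcctcccag
Rpl34: gcgccgCCTTCCCTgacgtacttcctgtcc
Rpl39: atccatCCCCCCCTaagctccgcctctagc

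The run stood in 6 of the 9 ribosomal protein genes that rose in KO cells, in 2 of the 3 that fell and have a promoter sequence, and in 28 of the 47 that did not pass the test. The letters CCGGAAG, the core bound by ETS factors, searched on both strands in the 300 bases around the start (250 before and 50 after), occurred in 41.3% of the ribosomal protein genes and in 13.5% of all. They also stood in 36.8% of the mitochondrial ribosomal protein genes. The letters AAGATGG, the core bound by YY1, occurred in 15.9% of the ribosomal protein genes and in 7.29% of all. CCGGAAG ends in the letters with which AAGATGG begins, and read on the other strand it holds pyrimidines that can belong to a run, so the matches are not independent. A match is a description of these letters and no evidence of binding.

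The libraries held 11505983 and 8325604 counts in KO cells, 7836296 and 7605328 in KO + rescue cells, and 8880121 and 10615611 in WT cells. Irak4 had 20.4 and 21.7 normalised CPM (CPM, the authors' unit, taken here over the TMM-scaled library size) in KO cells, 491 and 211 in KO + rescue cells, and 37.8 and 37.6 in WT cells. Both KO libraries had less Irak4 than the WT libraries, short of the threshold (adjusted p = 0.0573, edgeR's quasi-likelihood test with Benjamini-Hochberg adjustment), and both rescue libraries had more than WT. Mitochondrial transcripts took 1.97% and 2.33% of counts in KO cells, 1.86% and 1.30% in KO + rescue cells, and 1.39% and 1.65% in WT cells, and the non-coding gene Gm42418 took 2.93% and 2.67% in KO cells, 3.88% and 3.86% in KO + rescue cells, and 4.26% and 4.01% in WT cells. All 8 markers of pancreatic ductal tumour cells had a count in some library and 6 stood over 1 normalised CPM, with summed levels of 3838 and 3936 normalised CPM in KO cells, 4719 and 5588 in KO + rescue cells, and 6978 and 6666 in WT cells. Keratins make up most of that sum, Epcam was at 0 in every library but WT replicate 1, and Krt7 reached at most 2.34 normalised CPM. Cdh1 had 176 and 233 normalised CPM in KO cells, 140.4 and 97.5 in KO + rescue cells, and 362 and 393 in WT cells, and so was lowest in the rescue libraries, unlike the sum; Muc1 was too. The 3 endocrine markers had no count, the 8 immune markers summed to at most 0.751 normalised CPM in any library with Lyz2, Cd3e and Adgre1 at 0, and the 3 acinar markers to at most 2.06. The 7 fibroblast markers summed to 14.9 and 10.1 normalised CPM in KO cells, 18.5 and 23.8 in KO + rescue cells, and 13.5 and 13.2 in WT cells, with Dcn and Lum at 0. The 4 endothelial markers summed to 16.0 and 30.5 normalised CPM in KO cells, 38.0 and 14.8 in KO + rescue cells, and 4.86 and 5.46 in WT cells. Cdh5 alone carried that sum, with 15.9 and 30.4 normalised CPM in KO cells, 37.7 and 14.6 in KO + rescue cells, and 2.96 and 3.61 in WT cells, while Kdr had at most 0.133 in KO and KO + rescue cells and 1.54 and 1.66 in WT cells, and Emcn and Pecam1 were near 0. The part of these differences in the results that follow was not tested.

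The share of counts in ribosomal protein genes differed little between groups. It was 1.29% in both KO libraries, 1.27% in both KO + rescue libraries, and 1.18% and 1.20% in WT cells. Both KO libraries and both rescue libraries lay above both WT libraries. With mitochondrial genes and Gm42418 left out of the denominator, the share was 1.36% ± 0.000432 in KO cells, 1.34% ± 0.0125 in KO + rescue cells and 1.26% ± 0.0175 in WT cells (SD, n = 2 each). After TMM scaling, which sets most genes level between libraries, the order of KO and WT turned round. The summed level was then 12395 and 12292 normalised CPM in KO cells, 12649 and 12802 in KO + rescue cells, and 12429.5 and 12468 in WT cells. On that scale both KO libraries lay under both WT libraries and both rescue libraries above them. In such bulk samples, fewer cells of a type and less RNA per cell cannot be told apart. With 2 libraries against 2, an exact permutation test cannot give a two-sided p under 0.333, so no p is given for these sums.

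**Figure D1:**
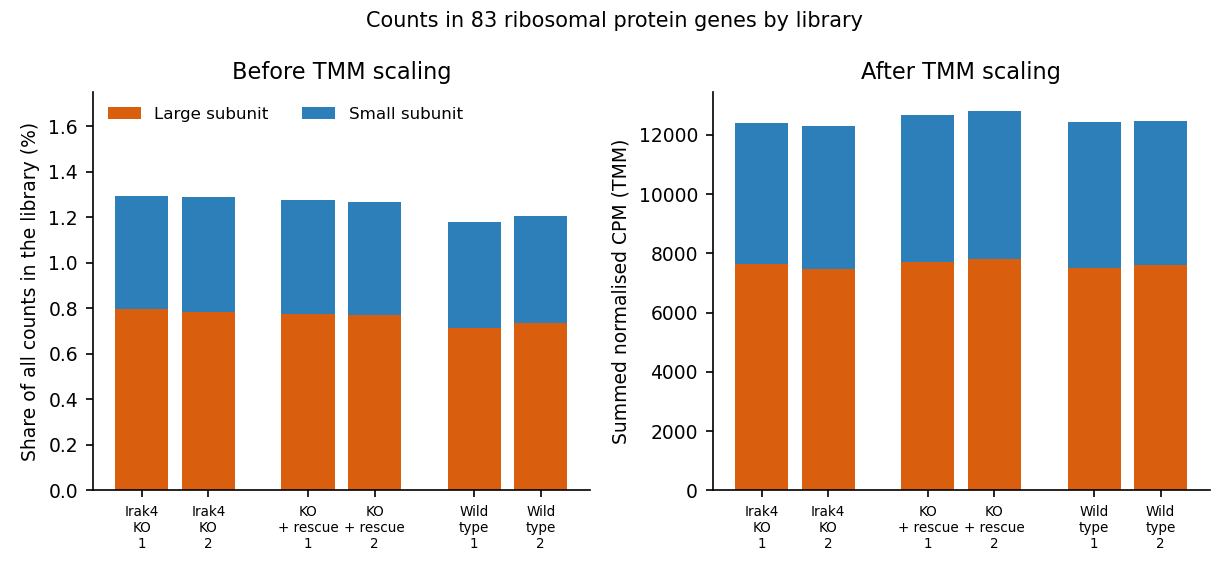
Stacked bars give the counts in the 83 ribosomal protein genes of each library, with the large subunit in orange and the small subunit in blue; the left y axis is the share of all counts in percent and the right y axis the summed normalised CPM after TMM scaling. The share is 1.29% in both KO libraries and 1.18% and 1.20% in the WT libraries, while the summed normalised CPM is 12395 and 12292 in KO cells and 12429.5 and 12468 in WT cells.

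The balance of the small and the large subunit overlapped between the groups. The ratio of their summed counts, small over large, was 0.622 and 0.645 in KO cells, 0.644 and 0.642 in KO + rescue cells, and 0.659 and 0.638 in WT cells. The KO and WT values overlapped, and the rescue values lay inside both ranges. Small-subunit genes took 0.495% and 0.506% of counts in KO cells, 0.499% and 0.495% in KO + rescue cells, and 0.469% in both WT libraries. Large-subunit genes took 0.796% and 0.785% in KO cells, 0.776% and 0.771% in KO + rescue cells, and 0.712% and 0.735% in WT cells.

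Counted levels differed widely between single ribosomal protein genes. Per kilobase (kb) of mRNA, levels averaged over the 6 libraries spanned 1287-fold among the 78 genes that passed the filter on low counts. Rpl8, which lies near the peptidyl transferase centre, was highest at 1410.0 normalised CPM per kb of mRNA, followed by Rplp1 of the acidic stalk at 1140.5. Rpl4, whose loop reaches into the exit tunnel, stood at 809, Rplp0, the base of the stalk, at 699, and Rps26, at the mRNA exit, at 483. At the other end Rpl24 had 1.10, Rpl23a 1.58, Rpl19 2.24, Rps6 3.77 and Rpl21 9.30 normalised CPM per kb of mRNA. Rps6, an essential protein and the best known substrate of the S6 kinases, had 55 and 33 counts in KO cells, 26 and 26 in KO + rescue cells, and 17 and 28 in WT cells. The 5 genes with the most counts took between 38.9% and 40.2% of all ribosomal protein counts in each library.

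How much of an mRNA is also found in other genes went along with these levels. In the median ribosomal protein gene, 57.4% of the 50-base windows of the mRNA occurred unchanged in a transcript of another gene of the GENCODE M21 annotation, and 52 of 83 genes had 50% or more of their windows so shared. Rps3 and Rpl8, at 2.96% and 7.86% shared, had 426 and 1410.0 normalised CPM per kb of mRNA. Rpl24, Rps6 and Rpl23a were 81.7%, 84.6% and 85.7% shared. The 27 tested genes under 50% had a median level of 196 normalised CPM per kb of mRNA, and the 51 others one of 60.0. Across the 81 genes with any count, Spearman's rho between the shared percentage and the level was −0.48; this is a description across genes that share libraries and counting, with no p. How reads with several matches were counted is not given in the sources used here, so the level of a gene with many shared windows is uncertain, and the part of sharing in the levels was not tested. The 728 annotated pseudogenes that share a window with a ribosomal protein gene took only between 0.00877% and 0.00964% of counts in a library.

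**Figure D2:**
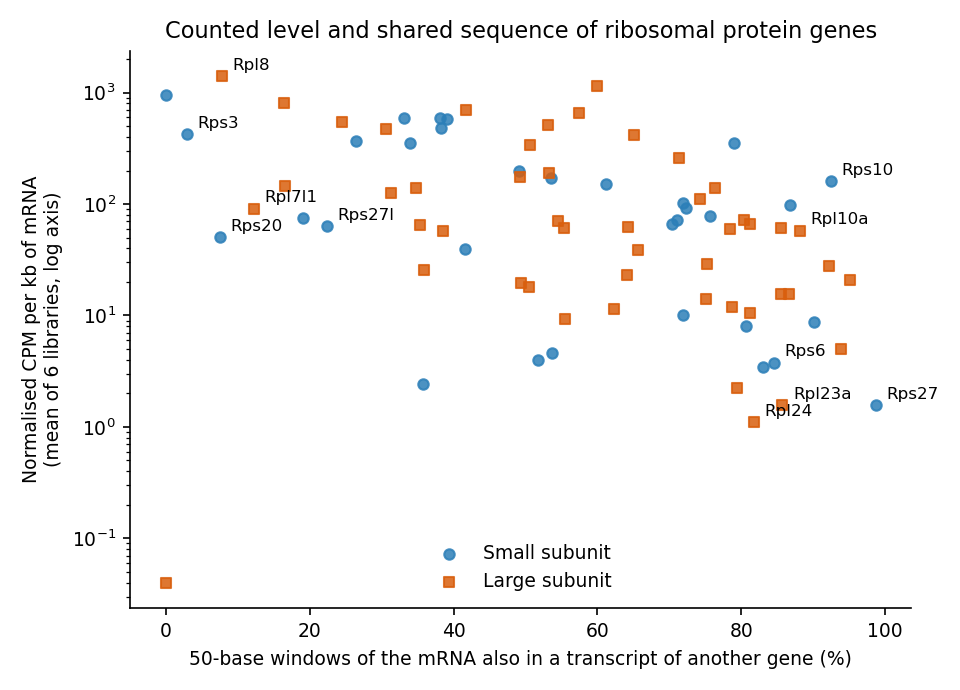
Each point is 1 of the 81 ribosomal protein genes with counts; the x axis is the percentage of 50-base windows of its mRNA that also occur in a transcript of another gene, and the y axis (log) is normalised CPM per kb of mRNA as the mean of 6 libraries. Rpl8 (1410.0) and Rps3 (426), with few shared windows, stand high; Rpl24 (1.10) and Rps27 (1.57), at 81.7% and 98.6% shared, stand low.

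Coding stretches of 50 bases show this sharing; all their letters are in capitals because the whole window is identical in other genes. They come from the GENCODE M21 transcripts of GRCm38 and are written 5′ to 3′. The Rps27 window covers bases 197 to 246 of the mRNA (coding bases 37 to 288) and occurs in 5 other genes. The Rpl23a window covers bases 291 to 340 (coding bases 42 to 509) and occurs in 18 other genes. The Rps6 window covers bases 557 to 606 (coding bases 87 to 833) and occurs in 13 other genes.
Rps27: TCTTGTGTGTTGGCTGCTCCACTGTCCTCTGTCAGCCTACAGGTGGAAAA
Rpl23a: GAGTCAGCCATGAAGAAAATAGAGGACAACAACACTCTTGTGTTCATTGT
Rps6: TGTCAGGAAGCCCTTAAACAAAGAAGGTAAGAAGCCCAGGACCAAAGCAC

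KO cells were set against WT cells to ask which of these transcripts differ where Irak4 was targeted. Of 78 genes tested, 9 rose and 4 fell in KO cells (16.7%), where 46.8% of all 12339 genes tested were called, 23.2% higher and 23.5% lower. A gene was called when its adjusted p was under 0.05. The changes were small: 5 of 78 fitted fold changes exceeded 1.5-fold, against 3483 of 12339 for all genes. The median log2 fold change was 0.07 for the ribosomal protein genes and 0.01 for all genes, with interquartile ranges of 0.34 and 0.67. Of the 78 genes, 29 had both KO libraries above both WT libraries and 22 had both below. Libraries that do not overlap are thus common with 2 against 2 and do not set a gene apart. The share over all genes was not counted. All 4 genes that fell and 7 of the 9 that rose code for large-subunit proteins. In the small subunit 2 of 30 genes were called, both higher, and their median was −0.02; in the large subunit 7 of 48 rose and 4 fell, with a median of 0.08.

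Rpl10a, the protein of the L1 stalk that contacts the transfer RNA leaving the ribosome, changed with the smallest adjusted p. The gene (ENSMUSG00000037805, GRCm38 chromosome 17, 28328471 to 28331033) had 57.5 and 52.4 normalised CPM in KO cells, 43.7 and 36.8 in KO + rescue cells, and 31.1 and 31.3 in WT cells. The 3 groups did not overlap, with KO highest and WT lowest. The log2 fold change in KO over WT was 0.82 ± 0.11 (SE; adjusted p = 1.2e-04, edgeR's quasi-likelihood test with Benjamini-Hochberg adjustment). Of its 50-base windows 88.1% are shared, and an exon overlaps the opposite-strand gene CT025652.2, which was not analysed here.

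Rpl27, a large-subunit protein mutated in some cases of Diamond-Blackfan anaemia, had the highest fold change among the genes called. The gene (ENSMUSG00000063316, GRCm38 chromosome 11, 101442298 to 101445529) had 19.6 and 16.6 normalised CPM in KO cells, 17.1 and 12.6 in KO + rescue cells, and 9.60 and 9.95 in WT cells. Both KO and both rescue libraries lay above both WT libraries, and KO and rescue overlapped. Its log2 fold change in KO over WT was 0.89 ± 0.18 (SE; adjusted p = 0.00151, same test). Rpl10, which completes the peptidyl transferase centre late in subunit maturation, had 25.6 and 26.2 normalised CPM in KO cells, 26.0 and 20.1 in KO + rescue cells, and 17.7 and 18.9 in WT cells. KO libraries again lay above WT libraries, and Rpl10 rose by 0.50 ± 0.14 on the log2 scale (adjusted p = 0.0118 by edgeR's quasi-likelihood test). It is 92.1% shared, so reads of near-identical copies may be among its counts or missing from them.

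Rpl28, Rpl27a and Rpl14 made up the rest of the ordinary large-subunit proteins that rose. Rpl28, which budding yeast lacks, had 16.2 and 15.7 normalised CPM in KO cells, 14.4 and 13.6 in KO + rescue cells, and 11.3 and 11.5 in WT cells. It rose by 0.48 ± 0.14 on the log2 scale; its exon overlaps Ube2s on the opposite strand, which had 22.4 and 21.6 normalised CPM in KO cells, 24.3 and 21.3 in KO + rescue cells and 18.4 and 18.2 in WT cells. Rpl27a had 33.0 and 33.1 normalised CPM in KO cells, 30.9 and 29.0 in KO + rescue cells, and 27.0 and 25.4 in WT cells, a rise of 0.34 ± 0.11. For both genes the 3 groups stood apart from each other, KO highest and WT lowest. Rpl14 had 187 and 175 normalised CPM in KO cells, 187 and 200.4 in KO + rescue cells, and 155 and 147 in WT cells, a rise of 0.26 ± 0.08. Rpl14 was above WT in both other groups, which overlapped. Adjusted p was 0.0152 for Rpl28, 0.0219 for Rpl27a and 0.0226 for Rpl14 (edgeR's quasi-likelihood test with Benjamini-Hochberg adjustment).

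The 4 genes that fell also belong to the large subunit and had mean levels of 88.2 to 219.6 normalised CPM. Rpl39, a small protein in the wall of the exit tunnel, had 80.4 and 85.2 normalised CPM in KO cells, 83.1 and 79.9 in KO + rescue cells, and 99.0 and 102 in WT cells. It fell by 0.28 on the log2 scale in KO over WT (SE 0.08, adjusted p = 0.0160, edgeR's quasi-likelihood test). Both KO and both rescue libraries lay below both WT libraries. Rpl34 had 145 and 149 normalised CPM in KO cells, 167 and 158 in KO + rescue cells, and 175 and 179 in WT cells, and fell by 0.27 (SE 0.08, adjusted p = 0.0157, same test). The 3 groups of Rpl34 did not overlap, KO lowest and WT highest. Rpl37, which can bind MDM2, had 96.9 and 101 normalised CPM in KO cells, 96.5 and 107 in KO + rescue cells, and 122 and 113 in WT cells, and fell by 0.25 (SE 0.09, adjusted p = 0.0357, same test). Rpl7 fell by 0.25 too, beside a rise of its paralog Rpl7l1. Rpl22l1 (−0.34, adjusted p = 0.0628) had the lowest fold change of all and Rps15a one of −0.25 (adjusted p = 0.117, same test), and neither passed.

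**Figure D3:**
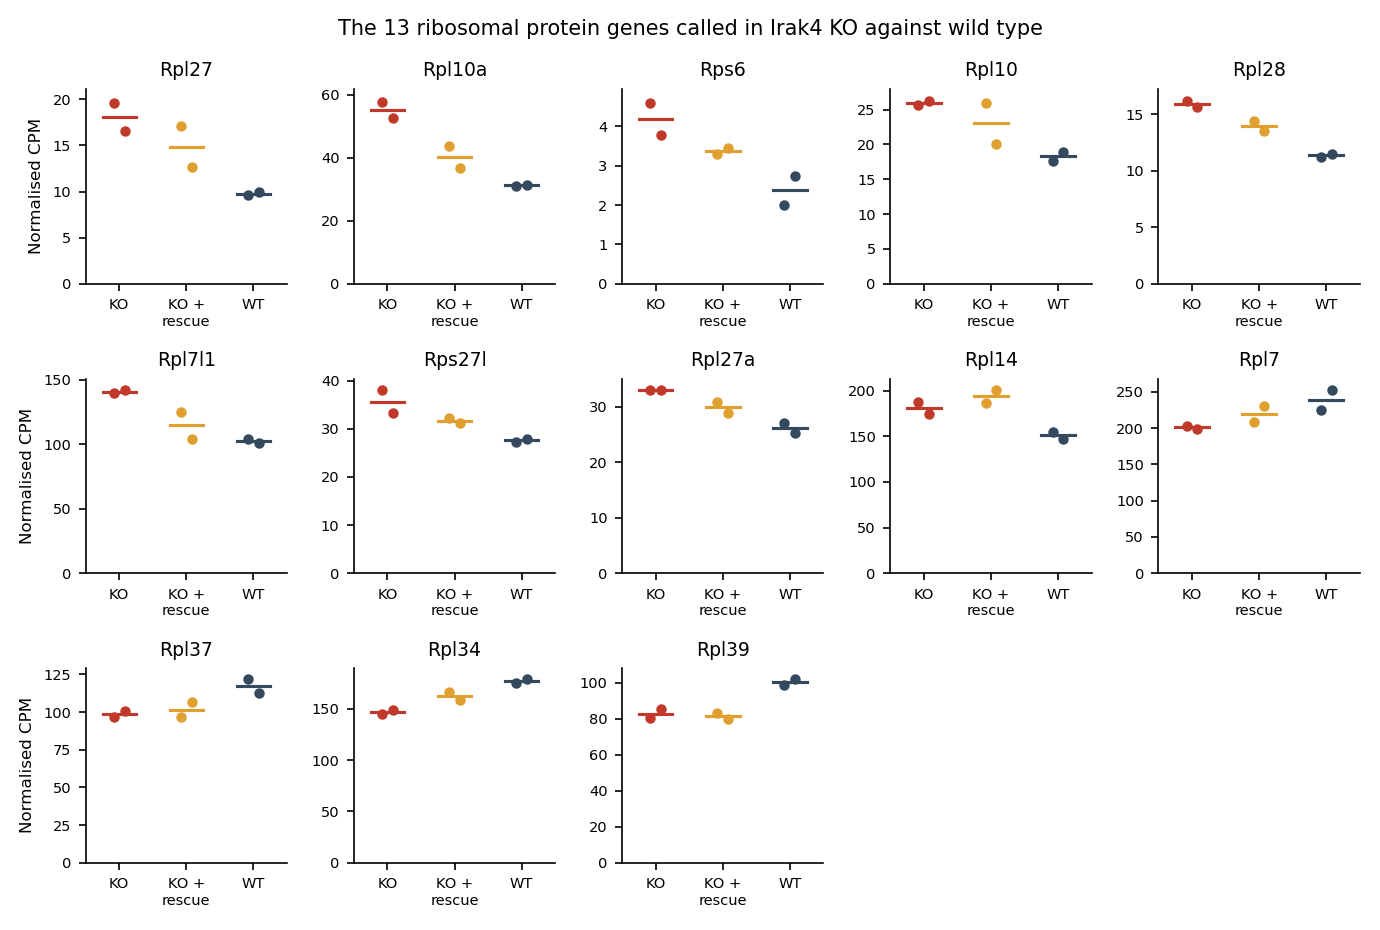
Each panel is 1 of the 13 ribosomal protein genes called in KO against WT; the y axis is normalised CPM from 0, each point is a library (KO red, KO + rescue orange, WT dark blue) and each line the mean of 2 libraries. Rpl10a has 57.5 and 52.4 in KO cells against 31.1 and 31.3 in WT cells, and Rpl39 has 80.4 and 85.2 in KO cells against 99.0 and 102 in WT cells.

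In the small subunit the only genes called were Rps6 and the paralog Rps27l. Rps6 had 4.59 and 3.78 normalised CPM in KO cells, 3.29 and 3.46 in KO + rescue cells, and 2.02 and 2.73 in WT cells. The 3 groups did not overlap, and the log2 fold change in KO over WT was 0.81 ± 0.28 (adjusted p = 0.0320, edgeR's quasi-likelihood test). This rests on the counts given above, from an mRNA 84.6% shared. The abundant small-subunit genes did not pass. Rps3, at the mRNA entry channel and also a DNA repair endonuclease, had 753 and 791 normalised CPM in KO cells, 808 and 845 in KO + rescue cells, and 856 and 827 in WT cells; its log2 fold change was −0.12, with a 95% interval of −0.31 to 0.06. Rps19, the gene most often mutated in Diamond-Blackfan anaemia, had 114 and 111 normalised CPM in KO cells, 112 and 113 in KO + rescue cells, and 107 and 102 in WT cells (log2 fold change 0.10, interval −0.08 to 0.28). Rps26, mutated in the same disease, had 320.5 and 326 in KO cells, 351 and 361 in KO + rescue cells, and 305 and 308 in WT cells (0.08, interval −0.09 to 0.25). KO and WT libraries did not overlap in any of these 3 genes, and none was called.

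Some genes with a role beyond the ribosome, unlike Rps3 and Rpl37 above, were counted at low levels. Rpsa, also known as the laminin receptor, had 7.59 and 8.70 normalised CPM in KO cells, 7.85 and 7.84 in KO + rescue cells, and 6.76 and 5.27 in WT cells (log2 fold change 0.44, interval −0.00 to 0.88). Rps27a, which is made as a fusion with ubiquitin, had 7.51 and 6.64 in KO cells, 7.34 and 6.51 in KO + rescue cells, and 5.10 and 5.66 in WT cells (0.40, interval −0.04 to 0.84). In both genes the KO libraries lay above the WT libraries without passing the threshold. Rpl5 and Rpl11, which with the 5S RNA bind MDM2 and stabilise p53 when ribosome assembly fails, had log2 fold changes of 0.11 (interval −0.28 to 0.50) and 0.48 (0.07 to 0.89). Rpl11 had 12.2 and 10.5 normalised CPM in KO cells, 8.23 and 10.4 in KO + rescue cells, and 9.01 and 7.41 in WT cells (adjusted p = 0.0534 by edgeR's quasi-likelihood test). Rpl5 had 11.0 and 10.4 in KO cells, 10.9 and 9.57 in KO + rescue cells, and 8.65 and 11.1 in WT cells, with groups that overlapped and 93.8% of its windows shared.

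The stalk proteins, which recruit translation factors to the ribosome, showed no called change. Rplp0 had 944 and 965 normalised CPM in KO cells, 960.2 and 926 in KO + rescue cells, and 910.2 and 989 in WT cells, with a log2 fold change of 0.01 in KO over WT (interval −0.18 to 0.19). Rplp1 had 593 and 558 in KO cells, 576 and 631 in KO + rescue cells, and 517 and 539 in WT cells (0.12, interval −0.06 to 0.31). Rplp2 had 185 and 160.3 in KO cells, 158 and 181 in KO + rescue cells, and 182 and 181 in WT cells (−0.07, interval −0.28 to 0.14). Rplp0 and Rplp2 overlapped between KO and WT, while both KO libraries of Rplp1 lay above both WT libraries. Rpl4 and Rpl8, the other genes of this height, had log2 fold changes of 0.10 (interval −0.08 to 0.28) and −0.12 (−0.31 to 0.08).

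Fold changes in KO over WT were spread by level. Among the 16 tested genes under 10 normalised CPM, 14 were positive with a median of 0.39 and 1 was called (6.25%), where all 3084 genes at that level had a median of −0.09 and 33.7% called. Among the 33 genes from 10 to 100 normalised CPM the median was 0.01, with 6 higher and 1 lower (21.2% called, against 49.4% of all genes at that level). Among the 29 genes of 100 or more it was −0.02, with 2 higher and 3 lower (17.2% called, against 55.8%). Spearman's rho between level and log2 fold change was −0.47 over the 78 genes and −0.0018 over all 12339, as a description with no p. The 51 genes with 50% or more of their windows shared had a median of 0.11 (5 higher, 2 lower), and the 27 others one of −0.03 (4 higher, 2 lower). Level and sharing move together in these genes, and the part of each was not tested. Rpl23a and Rpl24 had the highest fold changes among low genes, 1.15 ± 0.52 and 0.89 ± 0.47, and neither passed (adjusted p = 0.0893 and 0.140, edgeR's quasi-likelihood test). They had 15 and 10 counts each in KO cells and 5 and 5 (Rpl23a) or 5 and 7 (Rpl24) in WT cells. Both met the filter on low counts only because of their KO libraries, so the filter itself favoured a positive value in them. Both are among the 16 low genes, and the part of the filter in that median was not tested. Under a stricter filter (50 counts in 2 libraries), which left 69 ribosomal protein genes, their median was −0.01.

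**Figure D4:**
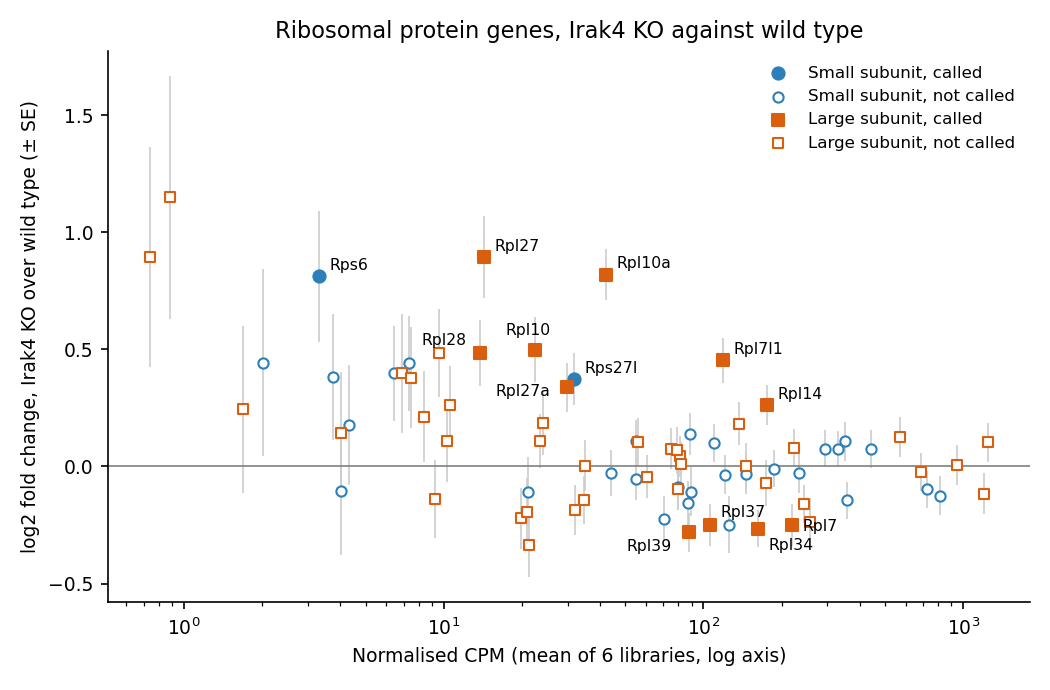
Each point is 1 of the 78 tested ribosomal protein genes; the x axis (log) is normalised CPM as the mean of 6 libraries, the y axis the fitted log2 fold change of KO over WT with its SE, filled points were called at an adjusted p under 0.05, and squares are large-subunit and circles small-subunit genes. Points under 10 normalised CPM lie mostly above 0 (median 0.39), and those of 100 or more lie close to 0 (median −0.02).

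Paralogs of ribosomal protein genes can replace their partner in the ribosome in some tissues. Rpl7l1, a Rpl7-like protein that acts in assembly of the large subunit, rose: the gene (ENSMUSG00000063888, GRCm38 chromosome 17, 46773907 to 46782672) had 139 and 142 normalised CPM in KO cells, 125 and 104 in KO + rescue cells, and 104 and 101 in WT cells. Its log2 fold change in KO over WT was 0.45 ± 0.10 (SE; adjusted p = 0.00245, edgeR's quasi-likelihood test), with only 12.2% of its windows shared. Its partner Rpl7 went the other way, with 203 and 198.5 normalised CPM in KO cells, 208 and 230.4 in KO + rescue cells, and 225 and 253 in WT cells, and fell by 0.25 (SE 0.09, adjusted p = 0.0396, same test). In both genes KO and WT did not overlap. Rps27l, a p53 target in human cells, had 38.0 and 33.3 normalised CPM in KO cells, 32.3 and 31.1 in KO + rescue cells, and 27.3 and 27.9 in WT cells. The groups did not overlap, KO highest, and the log2 fold change was 0.37 ± 0.11 (adjusted p = 0.0151, edgeR's quasi-likelihood test).

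Rps27, the partner of Rps27l, did not pass the filter: it had 10 and 3 counts in KO cells, 2 and 5 in KO + rescue cells, and 4 and 7 in WT cells, with 98.6% of its windows shared. Rpl22l1, which is held down by Rpl22 in mouse cells, had 18.8 and 17.7 normalised CPM in KO cells, 22.3 and 22.6 in KO + rescue cells, and 25.7 and 20.7 in WT cells. Rpl22 had 221 and 247 in KO cells, 244 and 276 in KO + rescue cells, and 297 and 254 in WT cells. Both stood lower in KO than in WT libraries without passing (log2 fold changes −0.34 and −0.24, adjusted p = 0.0628 and 0.0793 by edgeR's quasi-likelihood test). Rpl3l, a muscle form, had 3 counts in all, and its partner Rpl3 had 83.9 and 77.2 normalised CPM in KO cells, 79.5 and 89.7 in KO + rescue cells, and 77.3 and 82.9 in WT cells (log2 fold change 0.01, interval −0.20 to 0.22). Rpl10l and Rpl39l, known from the testis, had 0 counts in all 6 libraries, which allows up to 0.394 CPM in the shallowest library. Rps29 was the remaining gene under the filter, with 19 and 6 counts in KO cells, 9 and 7 in KO + rescue cells, and 6 and 7 in WT cells.

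Among all genes tested, fewer were called in KO over WT without a WT or KO library, and more without a rescue library. The calls of ribosomal protein genes also depended on single libraries. Their median log2 fold change was −0.01 without WT replicate 1 and 0.06 without WT replicate 2. It was 0.04 without KO replicate 1, 0.06 without KO replicate 2, and 0.07 without either rescue library. With all libraries, DESeq2 called 3 higher and 2 lower. DESeq2 thus called 6.41% of the ribosomal protein genes, against 35.5% of all genes. Scaled by library totals alone 19 rose and 0 fell (24.4% called, against 50.7% of all genes). The median of all genes was then 0.14 rather than 0.01, and all 4 genes that fell kept a negative sign. Rpl10a, Rpl27 and Rpl7l1 rose in all 16 alternatives, and the other 10 called genes passed in 8 to 12 of them (Rps6 in 9 of 15).

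KO + rescue cells were set against KO cells to ask which transcripts differ where Irak4 levels were raised. Rpl10a fell in KO + rescue cells, and it was the only one of 78 genes called (14.2% of all genes tested were called, 8.35% higher and 5.88% lower). Its log2 fold change in KO + rescue over KO was −0.45 ± 0.11 (adjusted p = 0.0198, edgeR's quasi-likelihood test), and both rescue libraries lay under both KO libraries. Another 8 genes had an unadjusted p under 0.05, of 9 in all, against 3745 of 12339 for all genes. DESeq2 called 0, against 9.51% of all genes. The call was lost without KO replicate 1, KO replicate 2 or rescue replicate 2, where fewer of all genes were called too. Over all 16 alternatives the log2 fold change of Rpl10a lay between −0.58 and −0.34. The median log2 fold change was 0.01 for the ribosomal protein genes and −0.00 for all genes. It was 0.02 for the small and −0.02 for the large subunit.

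Several genes at the ends of this comparison had few counts. Rpl10a, Rpl38 and Rpl35 did not, with means over the 6 libraries of 42.1, 20.9 and 19.8 normalised CPM. Rpl24 (−1.60 ± 0.55, adjusted p = 0.0760) had 3 and 3 counts in KO + rescue cells and 15 and 10 in KO cells. It met the filter on low counts only because of its KO libraries, which favoured a negative value here. Rpl19 (−1.08 ± 0.42, adjusted p = 0.108) had 0.886 and 1.20 normalised CPM in KO + rescue cells and 2.42 and 1.94 in KO cells. Rpl36 (0.46 ± 0.25), Rps12 (0.41 ± 0.25), Rpl38 (0.35 ± 0.15) and Rpl35 (0.32 ± 0.13) had the highest fold changes, and none passed (adjusted p from edgeR's quasi-likelihood test 0.238, 0.285, 0.130 and 0.122). Rpl7l1, which had risen in KO cells, stood 0.29 lower in KO + rescue than in KO cells on the log2 scale (log2 fold change −0.29, interval −0.51 to −0.08, adjusted p = 0.0616, same test). The rescue libraries of Rpl7l1 lay below both KO libraries, one of them at 125 and the other at 104 normalised CPM, between the WT values.

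KO + rescue cells were also set against WT, with the same WT libraries as the KO comparison. Of 78 genes 4 rose and 2 fell (22.2% of all genes tested were called, 10.2% higher and 12.0% lower). Rpl27 (0.60 ± 0.19), Rpl10a (0.37 ± 0.11), Rpl14 (0.36 ± 0.08) and Rpl26 (0.32 ± 0.09) rose, all large-subunit genes, with adjusted p of 0.0365, 0.0376, 0.0109 and 0.0287 in edgeR's quasi-likelihood test. Rpl26, which in human cells binds the p53 mRNA, had 144 and 159 normalised CPM in KO + rescue cells, 135 and 140.2 in KO cells, and 129 and 114 in WT cells. The groups of Rpl26 did not overlap, rescue highest. Rpl39 (−0.30 ± 0.08, adjusted p = 0.0249, same test) and Rps3a1 (−0.35 ± 0.10, adjusted p = 0.0246) fell. Rps3a1 had 60.0 and 65.4 normalised CPM in KO + rescue cells, 65.5 and 71.7 in KO cells, and 84.4 and 75.7 in WT cells, so that both rescue libraries lay under both WT libraries. None of the 6 calls passed without WT replicate 1 or without WT replicate 2, where fewer of all genes were called too. DESeq2 called 1 higher and 0 lower (1.28%, against 14.9% of all genes).

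The ribosomal protein genes at the ends of that comparison without a call were again low. Rpl23a (0.75), Rps13 (0.67) and Rpl36 (0.60) stood highest, and Rpl19 (−0.84) and Rpl24 (−0.70) lowest, with mean levels of 0.742 to 4.04 normalised CPM. The median was 0.04 for the ribosomal protein genes, 0.04 for the small and 0.05 for the large subunit, and 0.01 for all genes.

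Other genes of the translation machinery were read from lists beside the ribosomal protein genes. Of 75 tested mitochondrial ribosomal protein genes 31 rose and 1, Mrpl14, fell in KO over WT (42.7% called, against 46.8% of all genes), with a median log2 fold change of 0.25. Mrps6 led them with 51.1 and 50.1 normalised CPM in KO cells, 33.3 and 29.4 in KO + rescue cells, and 27.3 and 31.2 in WT cells (0.79 ± 0.11 in KO over WT, adjusted p = 1.5e-04, edgeR's quasi-likelihood test). Mrps6 was above WT in both KO libraries, and its rescue libraries overlapped WT. In KO + rescue over KO 6 of the 75 fell and 0 rose (8% called, all lower, against 14.2% of all genes called and 5.88% called lower), among them Mrps6 (−0.69), Mrpl18 (−0.55) and Mrpl49 (−0.43). In KO + rescue over WT 3 rose (Mrpl22 0.58, Mrpl54 0.49 and Mrpl42 0.33) and Mrpl14 fell (−0.41), 5.33% called against 22.2% of all genes. The 20 other TOP mRNAs had 2 higher and 4 lower in KO over WT (30% called, against 46.8% of all genes) and a median of −0.06. Eif3h at −0.38, Vim at −0.30, Eif3f at −0.29 and Pabpc1 at −0.28 were lower, and Nap1l1 at 0.26 was among those higher.

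Chaperones that carry single ribosomal proteins to the nucleolus had the highest median of the 5 lists, 0.90 in KO over WT, with 4 of 6 tested genes higher (Bccip, at 0.71, the last of them) and 0 lower (66.7% called, against 46.8% of all genes). Tsr2, the chaperone of Rps26, had 22.0 and 19.4 normalised CPM in KO cells, 13.4 and 11.6 in KO + rescue cells, and 8.30 and 6.83 in WT cells. Heatr3, which imports Rpl5, had 93.3 and 90.4 in KO cells, 67.7 and 58.1 in KO + rescue cells, and 31.3 and 45.4 in WT cells, while Grwd1, whose yeast form carries Rpl3, had 51.2 and 53.7 in KO cells, 37.9 and 26.9 in KO + rescue cells, and 23.6 and 25.7 in WT cells. All 3 were called in KO over WT (1.47, 1.25 and 1.09) and again, lower, in KO + rescue over KO (−0.73, −0.55 and −0.69), and in none of them did KO and WT overlap. Their client genes Rps26, Rpl5 and Rpl3, given above, were not called in KO over WT (0.08, 0.11 and 0.01). Tsr2 and Heatr3 were also called higher in KO + rescue over WT (2 of 6 genes on the list).

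Of 29 initiation factor genes 10 rose and 2 (Eif2s2 −0.31, Eif2b2 −0.25) fell in KO over WT (41.4% called, against 46.8% of all genes; median 0.14), with Eif2b1 (0.71), Eif4g1 (0.60) and Eif3b (0.52) at the smallest adjusted p. In KO + rescue over KO 1 fell, Eif2b1 (−0.36; 3.45% called, against 14.2% of all genes), and in KO + rescue over WT 5 rose (17.2% called, against 22.2%), among them Eif4g1 (0.42), Eif3b (0.39) and Eif4g2 (0.32). Of 13 genes of the mTOR and LARP1 machinery 6 rose and 2 (Eif4ebp1 and Deptor) fell in KO over WT (61.5% called, against 46.8% of all genes; median 0.16). Mlst8, a core subunit of the mTOR complexes, had 20.4 and 19.6 normalised CPM in KO cells, 11.9 and 13.0 in KO + rescue cells, and 9.01 and 11.1 in WT cells. Eif4ebp1, the inhibitor of cap-dependent translation that mTOR switches off, had 194 and 156 in KO cells, 261 and 312 in KO + rescue cells, and 272 and 280.2 in WT cells. KO and WT did not overlap in either gene, Mlst8 being higher (0.98) and Eif4ebp1 lower (−0.65), and both were called the other way in KO + rescue over KO (−0.68 and 0.71). Rptor rose in KO over WT and with Larp1 in KO + rescue over WT (0.26 and 0.29).

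**Figure D5:**
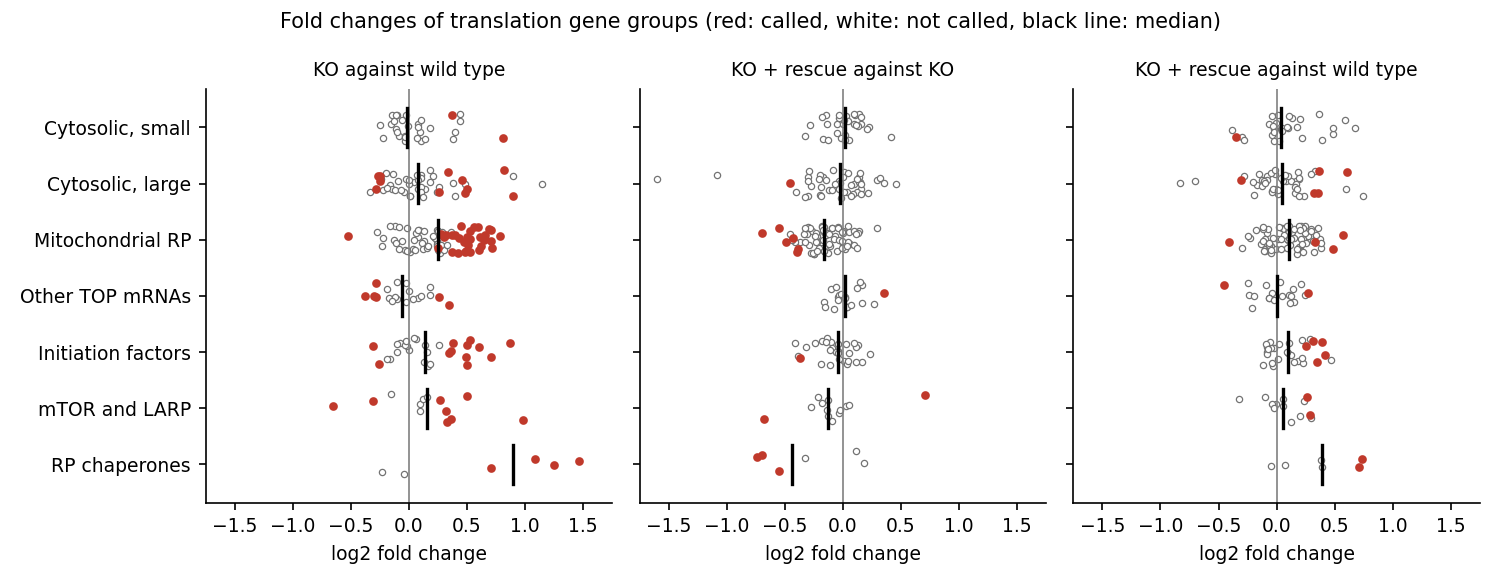
Each panel is 1 comparison, with the fitted log2 fold change on the x axis and the gene groups down the y axis; each point is a tested gene, red where called at an adjusted p under 0.05 and white where not, and the black line is the group's median. In KO against WT the medians are −0.02 and 0.08 for the small and large cytosolic subunits, 0.25 for mitochondrial ribosomal proteins (RP) and 0.90 for the RP chaperones.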

How the data were processed

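Poly(A) RNA of 3 groups of KP2 cells was sequenced, 2 libraries a group. Per the submitters' processing notes, bcl2fastq, STAR 2.0.4b, Subread and featureCounts 1.45 were used with GRCm38; annotation release, strand and multi-mapping settings were not given in those notes. Each deposited file gives a count, a CPM and an RPKM per gene, per the file headers; the count column was used, and the authors' CPM and RPKM could be recomputed from it. Gene names were matched for 40254 of 41388 IDs through GENCODE M21. Genes were filtered with filterByExpr (minimum count 10, minimum total 15), scaled by TMM and tested with edgeR's quasi-likelihood test over all 6 libraries (3 residual degrees of freedom) with Benjamini-Hochberg adjustment over 12339 genes (R 4.3.3, edgeR 4.0.16, limma 3.58.1, DESeq2 1.42.0). The script was tested on simulated data. Totals of 7605328 to 11505983 counts a library set the precision; the limit of 3 counts for a gene at 0 covers counting error only. Genes named are the 6 highest and 6 lowest fold changes in KO over WT and 4 each in the other comparisons, the 5 highest and 5 lowest per kb of the listed gene length, paralogs with partners, the stalk genes, Rpsa, genes with known roles, untested genes and up to 3 called genes per other list and comparison by adjusted p; other names were chosen after their values were seen. The ribosomal protein genes and the lists were chosen with earlier results of these data known. Alternatives changed the scaling, filter, test, samples and replicate block. Of 83 genes, 19 overlap an exon on the opposite strand, which without a known strand setting cannot be told apart from them. A few genes that the rule names are not reported here.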

Additional observations from a re-analysis of the deposited data

How the results depend on the processing

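The counts of ribosomal protein genes called moved with several choices, as did those of all genes tested. The cause was not tested in any of these cases. DESeq2 size factors, TMM without the ribosomal protein genes and leaving out mitochondrial genes and Gm42418 kept all calls (9 higher and 4 lower in KO over WT, 1 lower in KO + rescue over KO, 4 higher and 2 lower in KO + rescue over WT). Library totals alone gave 19 higher and 0 lower in KO over WT, 3 lower in KO + rescue over KO, and 8 higher and 1 lower in KO + rescue over WT. That was 24.4%, 3.85% and 11.5% called in those comparisons, against 50.7%, 16.4% and 23.5% of all genes. DESeq2's Wald test gave 3 higher and 2 lower, 0 lower, and 1 higher and 0 lower in those comparisons. It called 6.41%, 0% and 1.28% of the ribosomal protein genes, against 35.5%, 9.51% and 14.9% of all genes. No filter gave 2 lower in KO + rescue over KO (2.47% called, against 10.8% of all genes). Fitting only the groups compared gave 8 lower in KO over WT and 2 higher in KO + rescue over WT. In all, 23.1% and 5.26% were called there, against 53.6% and 19.4% of all genes. The calls also moved when single libraries were left out, as did those of all genes. A group left with 1 library is assumed to vary like the others, so the number of calls in such a fit is uncertain. In KO + rescue over WT the median log2 fold change of ribosomal protein genes ranged from 0.02 (without rescue replicate 2) to 0.05 (without WT replicate 1). The median log2 fold change in KO over WT turned to −0.01 under a stricter filter (50 counts in 2 libraries) and without WT replicate 1. The share of counts was 1.36% in KO, 1.34% in KO + rescue and 1.26% in WT cells without mitochondrial genes and Gm42418, and 1.29% in KO cells with named pseudogenes added. Over single libraries it ranged from 1.2905% to 1.2911% in KO cells. Of 1421 values of named genes under alternatives, 1217 kept their side of the threshold, 179 lost the call, 25 gained it and 0 reversed a call. Some genes without a call changed sign among the 1217. Rpl5 in KO over WT, at 0.11 in the main fit, reached −0.05, and Rplp2, at −0.07, reached 0.06. Depth limits the 16 tested genes under 10 normalised CPM.

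The labels number the replicates alike in all groups, but same-numbered libraries did not deviate together (correlation 0.04 for KO and WT, −0.19 for KO + rescue and KO, −0.15 for KO + rescue and WT). The labels do not say whether same-numbered libraries share more than the number, and these correlations cannot decide it. With the replicate number as a block, 8 rose and 2 fell in KO over WT, 1 fell in KO + rescue over KO, and 2 rose and 1 fell in KO + rescue over WT. That was 12.8%, 1.28% and 3.85% called, against 42.2%, 9.68% and 17.5% of all genes. With crossed numbers, an alternative chosen after seeing the data, 10 and 7, 0 and 3, and 6 and 4 were called higher and lower in those comparisons. That was 21.8%, 3.85% and 12.8% called, against 50.1%, 20.7% and 26.9% of all genes.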
